A study of Mus musculus with 6 samples.

Results

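The mature mouse miRNAs mmu-miR-5126, mmu-miR-1199-3p and mmu-miR-1199-5p, of which the miR-1199 pair are both arms of 1 hairpin, were followed through small RNA libraries of testicular peritubular myoid cells. These contractile cells form the wall of the seminiferous tubule. The 3 miRNAs are among the 1573 rows of known mouse miRNAs in a table of 61628 small RNA rows. They were picked by name because earlier results of these data placed them among the GC-rich miRNAs that lay higher after endothelin-1 (ET1), so their difference between the groups is a description here and is given without a test. The treated libraries came from primary C57BL/6J cells exposed to 50 nM ET1, a peptide that makes smooth muscle contract, for 5 min at 37 °C (n = 3 libraries), and the control libraries from the same kind of cells left untreated (n = 3 libraries). All cells had been grown with 10% fetal bovine serum. The labels do not say whether the libraries of a group came from separate cultures or animals, so spreads between them may be technical.

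A miRNA is cut from a hairpin precursor, and either arm of the hairpin, 5p or 3p, can be loaded into an Argonaute protein. Bases 2 to 8 of the loaded arm, the seed, pair with target mRNAs. Commonly 1 arm accumulates and the other is degraded. In mouse mammary cells miR-1199-5p is known as a repressor of Zeb1, a transcription factor of the epithelial-mesenchymal transition. Fragments of ribosomal RNA (rRNA) are a usual component of small RNA libraries, and their share moves with RNA quality, size selection and the amount of other small RNAs.

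The sequences, from the RefSeq miRNA table on GRCm38.p6, show how strongly G and C dominate these miRNAs. miR-5126 is encoded at chr1:84695890-84695911 on the plus strand, miR-1199-3p at chr8:84011549-84011569 and miR-1199-5p at chr8:84011594-84011613, both on the minus strand. The mature sequences follow with the seed in capitals.
miR-5126: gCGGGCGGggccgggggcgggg
miR-1199-3p: uGCGGCCGgugcucagucggc
miR-1199-5p: uCUGAGUCccggucgcgcgg
The mature miR-5126 is 22 bases long and consists of G and C only (100%), with 77.3% G and a longest run of 5 G. No other of the 1340 known miRNA rows with a sequence reached that GC content, and their median was 52.4%. miR-1199-3p (21 bases, 76.2% GC) and miR-1199-5p (20 bases, 75% GC) ranked within the top 29 and the top 33 of the 1340 rows. None of the 3 seeds is shared with another known miRNA of that table, so no seed family could be set beside them.

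The precursors are shown because the GC content extends beyond the mature arms, which are in capitals.
Mir5126: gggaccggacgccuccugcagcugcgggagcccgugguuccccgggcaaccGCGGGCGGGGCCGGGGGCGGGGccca
Mir1199: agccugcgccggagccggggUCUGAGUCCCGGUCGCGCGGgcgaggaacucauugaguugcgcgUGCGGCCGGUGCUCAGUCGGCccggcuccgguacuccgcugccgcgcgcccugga
Mir5126 (chr1:84695839-84695915, plus strand) is 77 bases long with 83.1% GC, a value that 2 of 1005 RefSeq hairpins, itself included, reached. Its predicted folding energy was −48.4 kcal/mol, or −0.63 kcal/mol per base, against a median of −0.41 over the 1005 hairpins. Mir1199 (chr8:84011515-84011633, minus strand) is 119 bases long with 74.8% GC and a predicted energy of −0.61 kcal/mol per base. In GENCODE M21, Mir5126 lies 306 bases inside Dner (chr1:84369839-84696221, minus strand), which encodes a neuronal transmembrane protein related to Notch ligands, on the opposite strand and across an exon and untranslated region. Mir1199 lies on the same strand as 2210011C24Rik (chr8:84010222-84012171), within an exon that includes coding sequence, 538 bases from the gene's start. No other annotated miRNA precursor lay within 50 kb of either.

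miR-5126 was the most abundant of the 3 miRNAs and lay higher in every ET1 library than in any untreated library. Its counts were 3582, 5780 and 16461 in ET1 libraries 1, 2 and 3, against 1665, 1905 and 2443 in untreated libraries 1, 2 and 3. Scaled to known miRNA tags with TMM, as CPM (tags relative to the known miRNA tags of the library), this came to 673, 1221 and 2889 CPM in the ET1 libraries, against 235, 269.7 and 409.9 CPM in the untreated libraries. The groups did not overlap, and ET1 library 3 stood well above both other ET1 libraries. It averaged 1594 ± 1154 CPM after ET1 and 305 ± 92.6 CPM without it (SD, n = 3 each), a 5.23-fold difference (log2 fold change 2.39, SE 0.51). Without ET1 library 3 it was 3.14-fold (log2 1.65, SE 0.45). By mean level miR-5126 ranked 78th of the 616 miRNAs that passed the filter on low counts. All 3 of the miRNAs described passed that filter.

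miR-1199-3p is the minor arm of its precursor, and its level in untreated cells was near the lower end of what these libraries could measure. It had 85, 94 and 214 tags in the ET1 libraries, against 20, 31 and 18 tags in the untreated libraries. These counts came to 15.97, 19.9 and 37.6 CPM in ET1, against 2.82, 4.39 and 3.02 CPM in untreated libraries. The groups did not overlap, and ET1 library 3 was again the highest. Its mean was 24.5 ± 11.5 CPM with ET1 and 3.41 ± 0.854 CPM in untreated cells (SD, n = 3 each), a 7.13-fold difference (log2 fold change 2.83, SE 0.51).

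miR-1199-5p, the major arm, differed less. It had 633, 1473 and 1403 tags in the ET1 libraries, against 508, 867 and 474 tags in the untreated libraries. The scaled levels were 119, 311 and 246 CPM in ET1, against 71.6, 123 and 79.5 CPM in untreated libraries. ET1 library 1 fell within the untreated range, below untreated library 2, so the groups overlapped on this scale. Scaled to known miRNA tags without TMM they did not, at 137, 336 and 291 CPM in ET1 against 62.6, 100.2 and 75.96 CPM in untreated libraries. The share of all miRNAs without overlap was not computed on that scale. With TMM, miR-1199-5p averaged 225 ± 97.8 CPM with ET1 and 91.3 ± 27.5 CPM in untreated cells (SD, n = 3 each). This was a 2.47-fold difference (log2 fold change 1.3, SE 0.45). In the order of log2 fold changes over the 616 miRNAs, miR-1199-3p stood 2nd, miR-5126 4th and miR-1199-5p 51st.

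**Figure D1:**
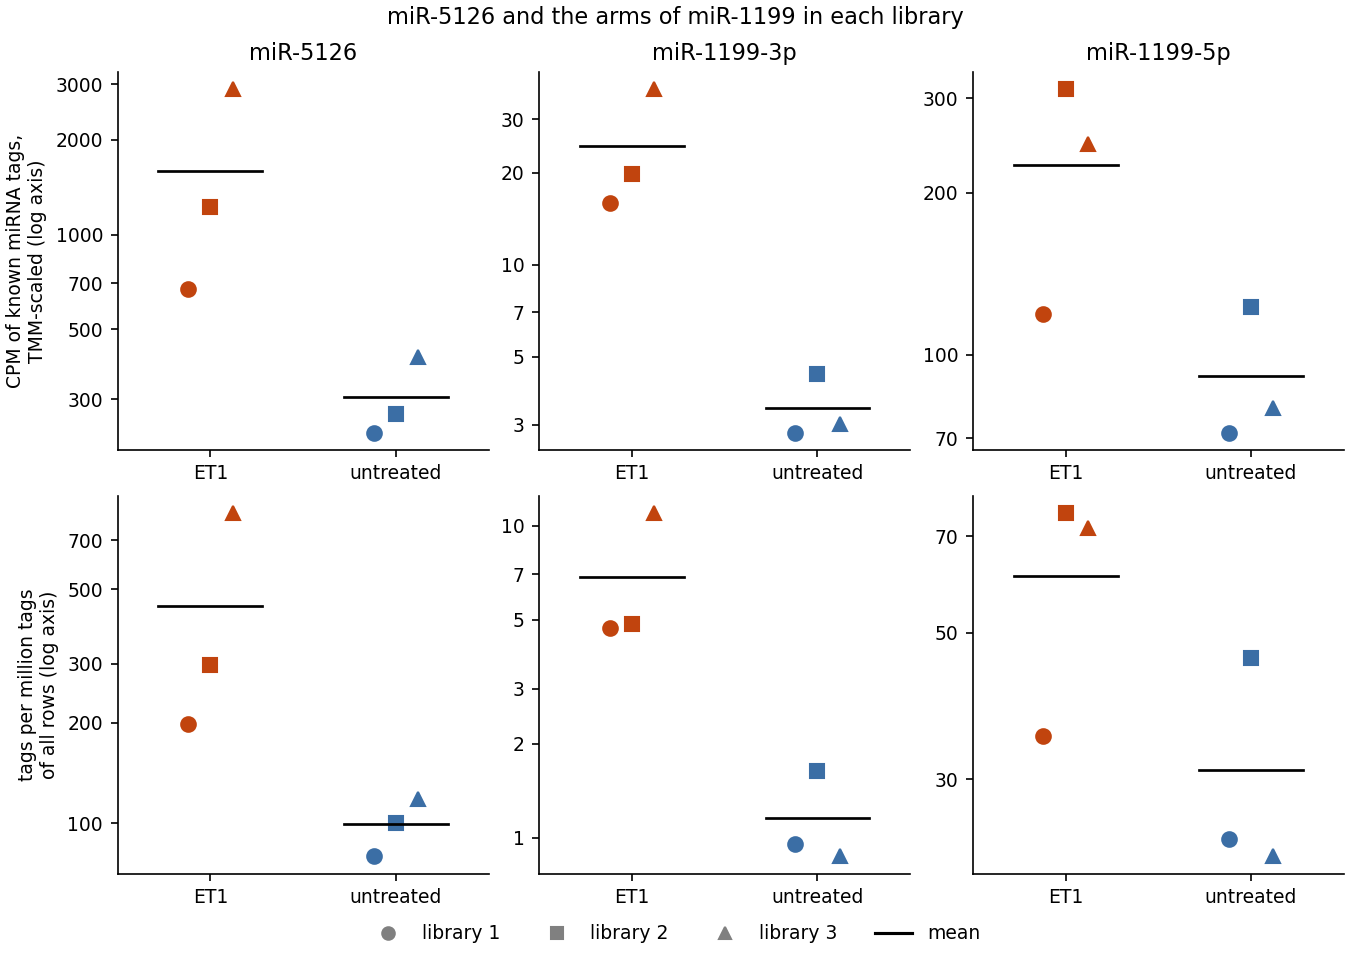
Level of each miRNA in the 3 ET1 and 3 untreated libraries, on log axes, as TMM-scaled CPM of known miRNA tags (top) and as RPM of all rows (bottom); symbols mark the library number and bars the group mean. ET1 library 3 holds the highest miR-5126 and miR-1199-3p levels, and ET1 library 1 overlaps the untreated range for miR-1199-5p.

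miR-5126 and miR-1199-3p were thus higher in ET1 without overlap, a state found in 12.5% of the 616 tested miRNAs (77 of 616); nothing is read from this, because the same contrast chose them. Over all 616, 11 passed edgeR's quasi-likelihood test after Benjamini-Hochberg adjustment (1.79%), 8 higher (1.3%) and 3 lower in ET1. Scaled to known miRNA tags alone the split was 38 higher and 3 lower, and scaled to all tags 5 higher and 6 lower. The median log2 fold change of the 616 was 0.0058 with TMM, 0.37 by known miRNA tags and −0.25 by all tags.

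Scaled to all tags instead of miRNA tags, the differences were smaller. Known miRNAs made up 24.3% ± 1.53 of the ET1 tags and 38.2% ± 7.75 of the untreated tags. As tags relative to all rows (RPM), miR-5126 had 197.6, 297.7 and 844 RPM in the ET1 libraries, against 79.7, 100.4 and 118 RPM in the untreated libraries. miR-1199-3p had 4.69, 4.84 and 10.98 RPM in ET1, against 0.957, 1.63 and 0.870 RPM in untreated libraries. For both, the groups again did not overlap. How many of all miRNAs do not overlap was not computed on this scale. miR-1199-5p had 34.9, 75.9 and 71.97 RPM in ET1, against 24.3, 45.7 and 22.9 RPM in untreated libraries, with overlap. The fitted log2 fold changes on this scale were 2.17 (SE 0.51) for miR-5126, 2.56 (SE 0.55) for miR-1199-3p and 0.98 (SE 0.47) for miR-1199-5p. By known miRNA tags without TMM they were 2.75, 3.23 and 1.68.

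The arms of miR-1199 shifted against each other, in a ratio within each library that no scaling moves; it comes from the contrast that chose these miRNAs and is likewise a description. There were 7.45, 15.7 and 6.56 miR-1199-5p tags per miR-1199-3p tag in the ET1 libraries, against 25.4, 27.97 and 26.3 in the untreated libraries. The untreated libraries were nearly alike in this ratio, and every ET1 library lay below all of them. The untreated values lie closer together than the width of their counting intervals below, so their small spread does not measure how stable the ratio is. The 3p arm made up 11.8% (95% exact binomial interval 9.57% to 14.4%), 6.00% (4.87% to 7.29%) and 13.2% (11.6% to 14.98%) of the pair's tags after ET1 (libraries 1, 2 and 3). In untreated libraries 1, 2 and 3 it made up 3.79% (2.33% to 5.79%), 3.45% (2.36% to 4.86%) and 3.66% (2.18% to 5.72%). The interval of ET1 library 2 overlaps those of untreated libraries 1 and 3, and the intervals of ET1 libraries 1 and 3 lie above all untreated ones. These intervals cover counting error only. The log2 ratio of 5p over 3p was 3.19 ± 0.677 in ET1 and 4.70 ± 0.0771 in untreated libraries (SD, n = 3 each, 0.5 added to each count), a difference of −1.51. Among the 141 precursors with both arms tested this was the 7th largest decrease; 15 of the 141 (10.6%) were lower without overlap, and the differences ran from −1.48 at the 5th to 1.63 at the 95th percentile. Both arms have nearly the same GC content.

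**Figure D2:**
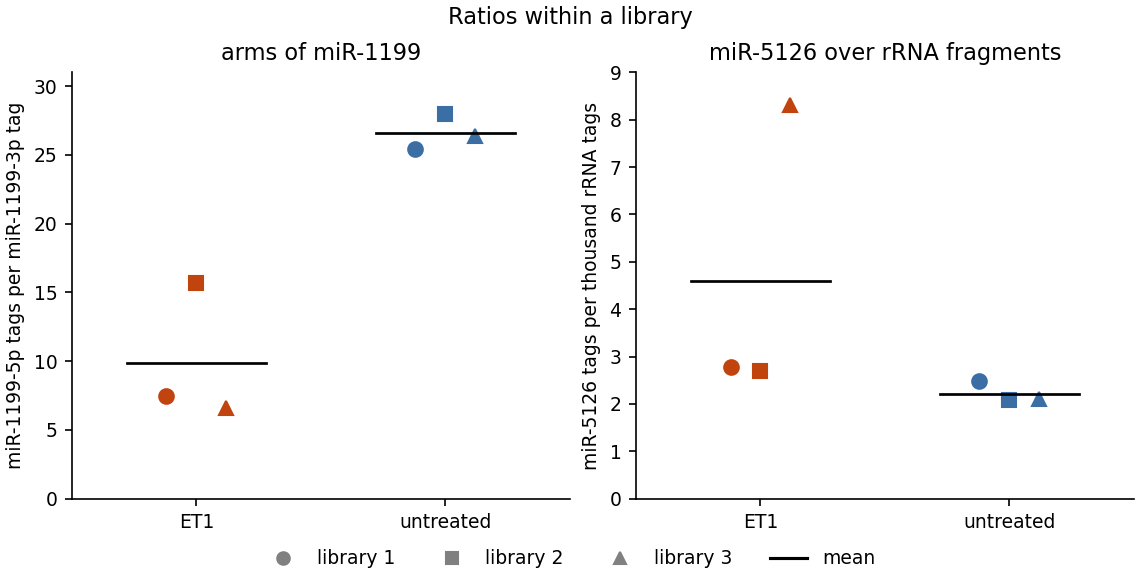
Left, miR-1199-5p tags per miR-1199-3p tag; right, miR-5126 tags per 1000 rRNA tags, in each ET1 and untreated library, with bars at the group means. The arm ratio is 6.56 to 15.7 in ET1 and 25.4 to 27.97 in untreated libraries, and for miR-5126 over rRNA ET1 library 3 alone stands apart, at 8.30.

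Fragments of rRNA made up 7.12%, 11.02% and 10.17% of all tags after ET1 (libraries 1, 2 and 3), against 3.22%, 4.82% and 5.63% in untreated libraries 1, 2 and 3. The mean was 9.44% ± 2.05 with ET1 and 4.55% ± 1.22 in untreated cells (SD, n = 3 each). The groups did not overlap, and the means differed by 4.88 percentage points (exact permutation p = 0.1, two-sided, the smallest p that 3 libraries against 3 allow). The row of 5.8S rRNA held 55.9% of these tags and made up 4.24%, 4.91% and 4.51% of the ET1 tags, against 2.09%, 4.03% and 3.67% of the untreated tags. The row of the eukaryotic small subunit, the 18S rRNA, held 36.4% and differed most between groups, at 2.02%, 5.47% and 5.21% in ET1, against 0.758%, 0.560% and 1.28% in untreated libraries. The eukaryotic large subunit (5.71% of rRNA tags) and the Rfam model of the bacterial small subunit (1.04%) came next. The model's name records which family profile a tag matched, not that bacteria were present. The share of the eukaryotic large-subunit row overlapped between the groups, at 0.714%, 0.471% and 0.259% in ET1 and 0.264%, 0.159% and 0.530% in untreated libraries.

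Set against all rRNA tags, miR-5126 had a similar proportion in 5 of the 6 libraries, with ET1 library 3 set apart by its value alone. This is a description. The contrast that chose miR-5126 for its higher level in ET1 also has the higher rRNA share in ET1, so a similar proportion is partly built in. It had 2.77, 2.70 and 8.30 tags per 1000 rRNA tags in ET1 libraries 1, 2 and 3, against 2.47, 2.09 and 2.10 in the untreated libraries. Outside ET1 library 3 the proportion therefore ran from 2.09 to 2.77, with both remaining ET1 libraries above all untreated ones. How many other miRNAs show no overlap in their proportion to rRNA was not computed, so nothing is read from this. Against small-subunit rRNA alone miR-5126 kept no such proportion. It had 100.4 RPM in untreated library 2, where the small-subunit share was 0.608%, and 297.7 RPM in ET1 library 2, where it was 5.60%. Within the untreated group, the order of miR-5126 in RPM was that of the rRNA share. Within ET1 it did not keep that order, because library 3 had the most miR-5126 and library 2 the most rRNA.

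For miR-1199-5p the proportion to rRNA overlapped between the groups, at 0.490, 0.688 and 0.708 tags per 1000 rRNA tags in ET1, against 0.755, 0.949 and 0.407 in untreated libraries. The mean was 0.629 ± 0.120 in ET1 and 0.704 ± 0.275 in untreated libraries (SD, n = 3 each). Within ET1 its order in RPM matched that of the rRNA share, and within the untreated group it did not, since untreated library 3 had the highest rRNA share and the lowest miR-1199-5p in RPM; in CPM, untreated library 1 was the lowest. For miR-1199-3p the proportion stayed higher in ET1 without overlap, at 0.0658, 0.0439 and 0.108 tags per 1000 rRNA tags, against 0.0297, 0.0339 and 0.0155 in untreated libraries. This proportion was not computed for other miRNAs, so no share without overlap stands beside it.

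**Figure D3:**
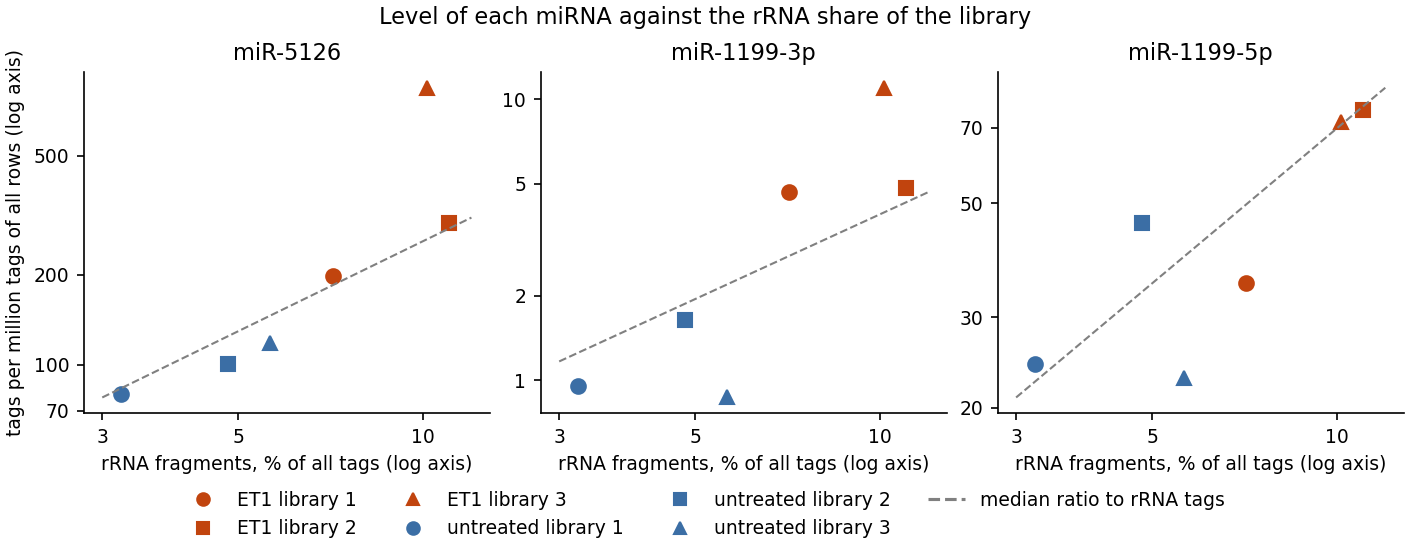
Level in RPM of all rows against the rRNA share of all tags in each library, both on log axes; the dashed line is the median proportion to rRNA tags over the 6 libraries. miR-5126 lies near its line except in ET1 library 3, miR-1199-3p lies above its line in ET1 and below it in untreated libraries, and miR-1199-5p scatters on both sides in the untreated group.

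Because the rRNA share splits the libraries into the same 2 clusters as the treatment, no correlation over all 6 libraries is given. Instead a slope on the log2 rRNA share was fitted within the groups, which the choice of these miRNAs did not use. The slope, as log2 CPM per doubling of the rRNA share, was 1.41 (SE 0.75) for miR-5126, 1.15 (SE 0.72) for miR-1199-5p and 0.72 (SE 0.81) for miR-1199-3p. None passed the threshold (edgeR adjusted p = 0.71, 0.75 and 0.84). On the scale of all tags, where a slope of 1 is constant proportion to rRNA, the slopes were 1.22 (SE 0.83), 0.96 (SE 0.81) and 0.54 (SE 0.90) in the same order (edgeR adjusted p = 0.898, 0.898 and 0.916). A slope of 1 lay within 1 SE of each and a slope of 0 within 1.5 SE of each, so the fit does not separate them. Of the 616 miRNAs, 0 (0%) passed in this fit and 44 (7.14%) had an unadjusted p under 0.05; the median slope was 0.14. With 3 residual degrees of freedom the fit rests on few libraries. Without untreated library 1 the slope of miR-5126 was 2.54, and without ET1 library 1 it was 0.60. On the share of small-subunit rRNA alone the slopes were 0.92 (SE 0.37) for miR-5126, 0.36 (SE 0.41) for miR-1199-5p and 0.24 (SE 0.43) for miR-1199-3p (edgeR adjusted p = 0.49, 0.82 and 0.88).

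With the log2 rRNA share as a covariate, the log2 fold changes were 0.81 (SE 0.95) for miR-5126, 2.04 (SE 0.99) for miR-1199-3p and −0.0079 (SE 0.93) for miR-1199-5p. These SEs exceed those without the covariate (0.51, 0.51 and 0.45). The share and the treatment move together over the libraries and cannot be told apart.

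The mature sequences were also compared with the rRNA transcripts at hand. The longest run that miR-5126 shares with Gm42418, a GENCODE transcript that RefSeq lists under the 18S-related pseudogene Rn18s-rs5, is 10 bases, a length reached by 2.76% of the 1340 known miRNA rows. Both arms of miR-1199 share 7 bases with it, the median of all rows. With the transcripts annotated as rRNA the longest shared runs were 9 bases for miR-5126, 8 for miR-1199-3p and 7 for miR-1199-5p, against a median of 9. The 28S rRNA was not searched here. The whole mature miR-5126 was found in the sense direction in no other annotated gene, and the arms of miR-1199 in 2210011C24Rik alone.

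Other GC-rich miRNAs also lay higher in ET1, as a description of all tested rows. The median log2 fold change was −0.22 for the 61 tested miRNAs under 40% GC, −0.26 for 148 from 40% to 50%, 0.0031 for 172 from 50% to 60%, 0.48 for 121 from 60% to 75%, and 0.56 for the 9 others of at least 75%. Of those with 60% to 75% GC, 91 were positive and 30 negative, against 311 and 305 over all 616 miRNAs. A mature sequence was found for 514 of the 616 (83.4%).

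Of the 30 other known miRNAs with at least 75% GC, 9 passed the filter on low counts, and 8 of these 9 had a positive log2 fold change, against 311 of all 616. Their median was 0.56, given as a description of those that passed. Leaving out untreated library 3 gave 1.26, leaving out ET1 library 1 gave 1.04, leaving out untreated library 1 gave 0.96 and leaving out ET1 library 3 gave 0.41. Scaled to all tags the median was 0.32, and with the mature GC correction it was −0.37. miR-3072-5p had 28, 33 and 45 tags in ET1, against 6, 8 and 12 tags in untreated libraries; it passed the filter through its ET1 counts, so no test of it is given. The 5 most abundant were miR-2137, miR-6538, miR-7648-3p, miR-615-5p and miR-7658-5p, and none of these passed edgeR's test. miR-6538 (94.7% GC), the nearest to miR-5126 in GC content among those that passed the filter, stood at 115, 336 and 302 CPM in ET1, against 102, 64.0 and 114 CPM in untreated libraries (log2 fold change 1.43, SE 0.47). Its order of the ET1 libraries was that of miR-1199-5p, with library 2 highest, not that of miR-5126. miR-2137 (85.7% GC) was highest in untreated library 1, at 1190, 1406 and 857 CPM in ET1, against 2656, 179 and 286 CPM in untreated libraries (log2 fold change 0.15, SE 1.15). The log2 fold changes of miR-7648-3p, miR-615-5p (from an intron of Hoxc5) and miR-7658-5p were 0.91, 0.52 and 0.43.

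**Figure D4:**
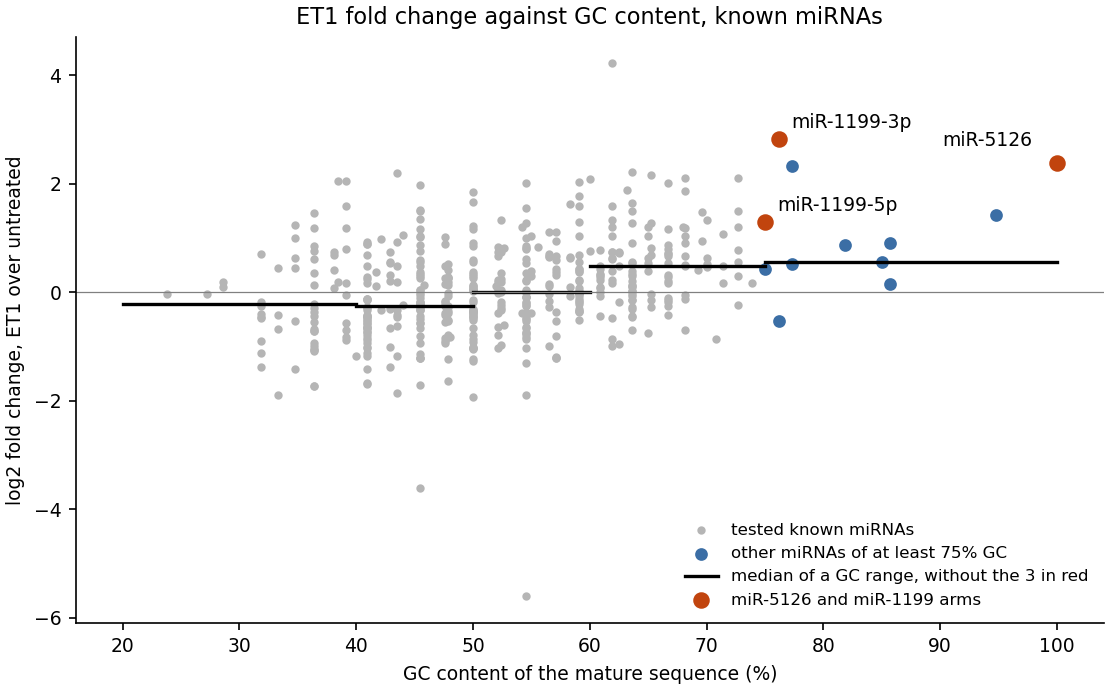
Log2 fold change of ET1 over untreated against the GC content of the mature sequence for the tested known miRNAs with a sequence; black bars give the median of each GC range without miR-5126 and the arms of miR-1199. The medians run from −0.22 under 40% GC to 0.56 at 75% and above, and the 3 red points lie above the last median.

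When a smooth trend of level on mature GC content was removed in each library, the log2 fold change was 0.36 (SE 0.37) for miR-5126, 1.70 (SE 0.51) for miR-1199-3p and 0.14 (SE 0.46) for miR-1199-5p. At 100% GC miR-5126 is itself the end of the trend, so part of its own level enters the correction. The miR-1199 arms and the other GC-rich miRNAs also enter it, so smaller values of GC-rich miRNAs after it are partly built in.

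**Figure D5:**
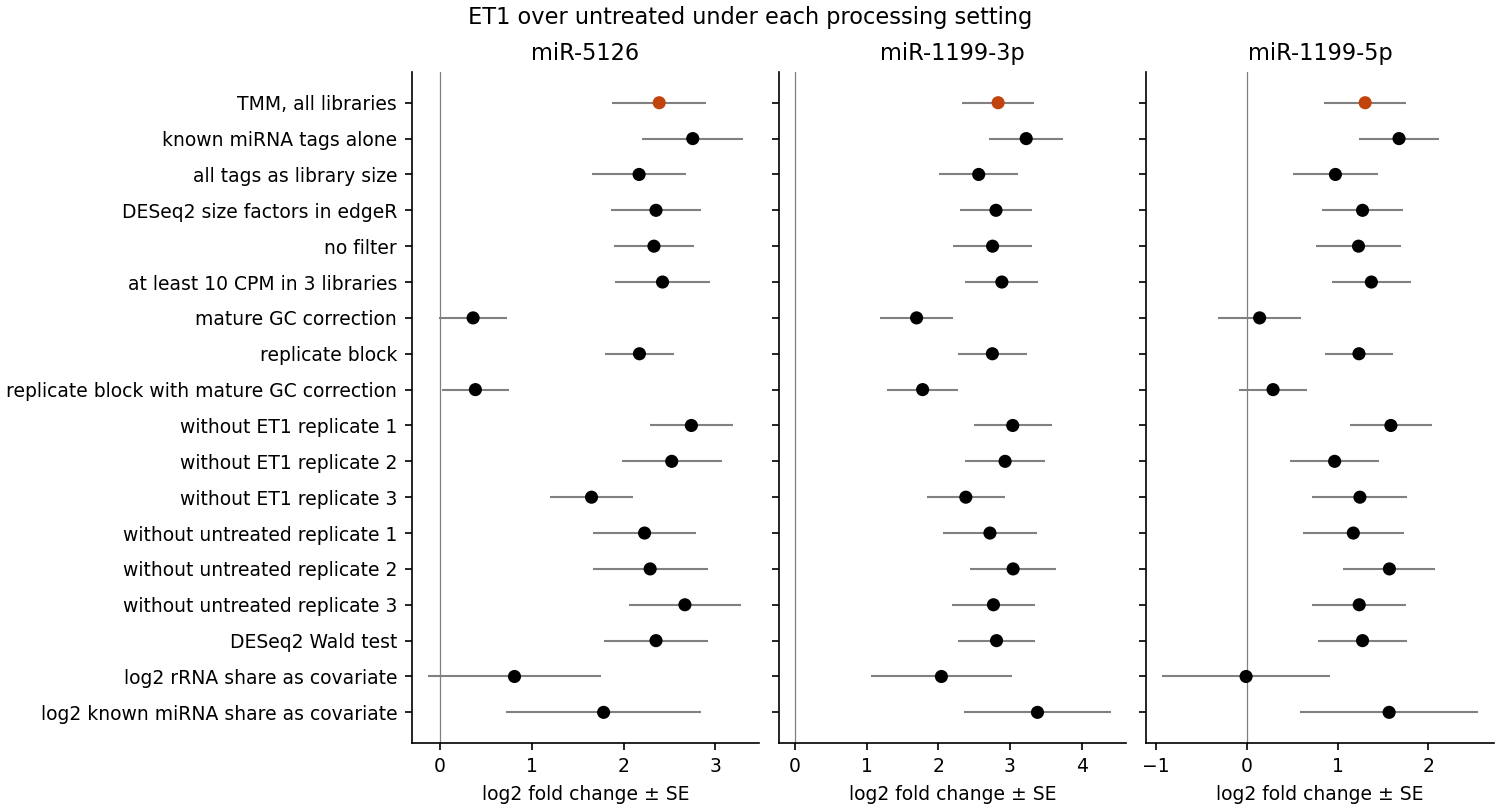
Log2 fold change of ET1 over untreated with its SE for each miRNA under each processing setting; the red point is the value with TMM and all libraries. The GC correction and the rRNA covariate bring miR-5126 to 0.36 and 0.81 and miR-1199-5p to 0.14 and −0.0079, and miR-1199-3p stays at 1.70 or above.

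Within the ET1 group miR-5126 varied more than most miRNAs. The SD of its log2 CPM was 1.06 in ET1, the 57th highest of 616, and 0.42 in untreated libraries, the 369th. For miR-1199-3p the SD was 0.63 and 0.31, and for miR-1199-5p 0.72 and 0.41, in ET1 and in untreated libraries. Over the 6 libraries the log2 CPM of miR-5126 and miR-1199-3p had a Pearson r of 0.94, miR-5126 and miR-1199-5p one of 0.84, and the 2 arms of miR-1199 one of 0.87. These values describe libraries of 2 groups that differ in level and share their scaling.

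The miRNAs most like each in level over the 6 libraries were of varied composition. Their r values span both groups, so the difference between ET1 and untreated libraries enters them. Nearest to miR-5126 were miR-3102-5p.2-5p (r = 0.97, 71.4% GC), the joint row of miR-486a-5p with miR-486b-5p (r = 0.95) and miR-877-5p (r = 0.95, 65% GC), which is spliced out of an intron of Abcf1 as a mirtron. Their log2 fold changes were 1.07, 2.41 and 1.21. ET1 library 3 was the highest for all 3, as for miR-5126, but close to ET1 library 2. ET1 libraries 3 and 2 had 2757 and 2516, 1045 and 1019, and 1655 and 1592 CPM in the same order. miR-5126 had 2889 and 1221 CPM there. Nearest to miR-1199-3p were miR-19b-3p of the miR-17-92 cluster (r = 0.95, 39.1% GC), miR-5129-5p (r = 0.95, 45.5% GC) and miR-3072-5p (r = 0.94, 77.3% GC). Nearest to miR-1199-5p were miR-698-5p (r = 0.99, 57.1% GC), miR-7a-5p (r = 0.95, 34.8% GC) and miR-19b-3p (r = 0.94).

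In the authors' deposited table, made from counts pooled over the 3 libraries of a group, the log2 ratio of ET1 over untreated was 2.80 for miR-5126, 3.21 for miR-1199-3p and 1.62 for miR-1199-5p. In the authors' deposited table these were the 5th, 2nd and 50th highest of the 584 rows with at least 50 pooled counts in each group. Each deposited log2 ratio is 0.70 above that of the pooled counts themselves, which was 2.10, 2.51 and 0.92 in the same order. The scaling behind this offset is not given. Pooling leaves the spread between libraries out, and ET1 library 3 gave 16461 of the 25823 pooled ET1 tags of miR-5126.

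Depth was 18127265 to 19493731 tags with ET1 and 18972157 to 20895432 without it. The 2 smooth muscle miRNAs used as markers, miR-143-3p and miR-145a-5p, summed to 13998 to 18335 CPM of known miRNA tags (without TMM) in ET1 and 19440 to 23849 in untreated libraries. miR-143-3p was lower in ET1 without overlap, at 13217, 11293 and 15850 against 21999.8, 20077 and 16945 in untreated libraries, and miR-145a-5p overlapped, at 3086, 2705 and 2485 in ET1 against 1849.6, 2553 and 2495 in untreated libraries. The endothelial miR-126a arms (2 of 2 detected in every library) summed to 131 to 192 in ET1 and 1057 to 1646 in untreated libraries. The leukocyte markers miR-150-5p, miR-142a-3p and miR-223-3p summed to 38.6 to 45.2 in ET1 and 192 to 283 in untreated libraries. Of these, miR-150-5p was lower in ET1, at 24.8, 24.4 and 35.4 against 279, 177 and 262 in untreated libraries. miR-142a-3p was higher, at 2.16, 3.19 and 1.66 in ET1 against 0, 0.578 and 0.961 in untreated libraries. It did not pass the filter on low counts, so little can be read from it. miR-223-3p overlapped, at 18.2, 10.95 and 7.87 in ET1 against 3.698, 14.4 and 4.49 in untreated libraries. The red cell miR-451a (43.9 to 325 in ET1, 42.8 to 643 in untreated libraries), epithelial miR-200b-3p (32.6 to 55.2 in ET1, 39.2 to 106.7 in untreated libraries) and liver miR-122-5p (24.8 to 526 in ET1, 72.6 to 198 in untreated libraries) overlapped between the groups. The joint row of miR-486a-5p with miR-486b-5p, near miR-5126 in level, is also of red cells but was not on the marker list. Unlike miR-451a it was higher in ET1 without overlap, as were 12.5% of the 616 tested miRNAs. It stood at 406, 1019 and 1045 CPM with TMM in ET1, against 94.2, 127 and 242 in untreated libraries. Fewer cells of a type and less RNA per cell cannot be told apart in such bulk libraries. The part of these markers in the levels of miR-5126 and miR-1199 was not tested. With the log2 known miRNA share as a covariate, the log2 fold changes of ET1 over untreated were 1.78 (SE 1.06) for miR-5126, 3.38 (SE 1.02) for miR-1199-3p and 1.57 (SE 0.98) for miR-1199-5p.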

How the data were processed

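Small RNA of 6 libraries was extracted as total RNA with TRNzol and sequenced after the BGI small RNA protocol, per the labels' protocols. Bowtie2 and mm10 are named, per the submitters' processing notes; the aligner's version, databases, mismatches and multi-locus handling are not given in the sources used here. Per the file headers, the authors deposited tag counts for 61628 rows and a value headed TPM, which from the values is an RPM (relative to all rows, no length term; ratio to the recomputed RPM 0.998 to 1.003 at counts of at least 50) and entered no test. A deposited DEGseq comparison of the authors gives pooled counts, mean RPM, a log2 ratio and p-values and q-values without settings.

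Known miRNA rows were fitted with edgeR 4.0.16 in R 4.3.3 (TMM over known miRNA rows, default expression filter, robust quasi-likelihood fit, two-sided, Benjamini-Hochberg threshold 0.05). Slopes used the group and the log2 rRNA share as terms. Likeness is Pearson's r of log2 CPM (prior count 2). The fits were run on simulated counts with less spread between libraries than the 3 miRNAs showed. That checks the code, not the power of the slope fit here. Folding energies are from RNAfold 2.7.2. DESeq2 1.42.0 was an alternative. The GC correction removed a lowess trend (span 0.5) on mature GC. Rows for exon, intron, intergenic and repeat totals (4) entered only the totals. Members and lists were chosen with earlier results of these data known. Named beside the 3 miRNAs were the 3 most alike to each, those sharing a seed, the 5 most abundant of at least 75% GC, the 4 largest rRNA rows and marker miRNAs; miR-3072-5p in the GC list was named after its values were seen. Depth was 18127265 to 20895432 tags.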

Additional observations from a re-analysis of the deposited data

How the results depend on the processing

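In each of the 17 alternatives run, miR-5126 and miR-1199-3p had log2 fold changes above 0, from 0.36 to 2.75 and from 1.70 to 3.38; miR-1199-5p ran from −0.0079 (rRNA share as covariate) to 1.68. The median of the other GC-rich miRNAs was −0.37 with the mature GC correction, −0.32 with the replicate block and that correction, and −0.025 with the known miRNA share as a covariate; the cause was not tested. The count of 11 miRNAs passing edgeR's test was 41 with known miRNA tags alone, 37 without a filter, 6 with the GC correction and 39 with DESeq2. It was 0 with the rRNA share or the known miRNA share as a covariate (44 and 43 at an unadjusted p under 0.05), and 2 to 30 with 1 library left out (leaving out ET1 library 3 gave 2, untreated library 2 gave 5, untreated library 3 gave 25 and ET1 library 1 gave 30).

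For the slope on the rRNA share, the count of 0 was 6 without a filter and 1 to 8 with 1 library left out, when 2 residual degrees of freedom remained. None of the slopes of miR-5126 (0.60 to 2.54 with 1 library left out), miR-1199-3p (0.084 to 1.13) and miR-1199-5p (0.45 to 1.78) passed in any of the 16 alternatives. On the known miRNA share the slope of miR-5126 was −1.003. The rRNA difference was 14.2 points of the tags without the exon, intron, intergenic and repeat totals and 1.47 points for large-subunit rows, and 4.09 to 6.04 with 1 library left out.

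By the labels, libraries of the same number share only that number, and whether they were paired is not said. Their deviations from the group means correlated at 0.28, 0.060 and 0.25 for numbers 1, 2 and 3. Each library correlated best with its own number, a hint from the data and not the design. With the replicate block the count of 11 was 21, and 43 with the block and the GC correction; the slope count was 7 and 13. The slopes were then −2.77, −4.15 and −1.62 for miR-5126, miR-1199-3p and miR-1199-5p with the block, and −2.51, −6.18 and −3.65 with the GC correction added, on 1 residual degree of freedom. Depth limits miR-1199-3p, with 18 to 31 tags in untreated libraries.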

Other observations

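Of the 12 tested miRNAs with the highest log2 fold changes, 10 had a mature sequence and 9 of these had at least 60% GC, against 133 of 514 tested miRNAs with a sequence (25.9%). miR-5126 and miR-1199-3p are among the 9 and were chosen by this same contrast. miR-3072-5p, also among them, passed the filter on low counts through its ET1 counts. miR-6987-5p and miR-7085-5p averaged only 3.12 and 2.27 CPM over the 6 libraries. At log2 fold changes of 2.21 and 2.11, they too passed that filter through their ET1 counts. The highest of all was miR-3473e (61.9% GC), at 4.22, whose groups overlapped. miR-871-3p (43.5% GC) was the exception, at 2.20 with overlap. No test was run on this count, and nothing is read from it.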
